A study of Oryza sativa with 7 samples.

Results

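The loci described here are 10 MADS-box genes of rice (Oryza sativa) that act mainly in vegetative growth, the timing of flowering and the root. They were chosen by a list of locus IDs with gene names, and they are 10 of the 37858 loci in the exon count tables, with 78 of the 178317 exon bins. An exon bin is a piece of the annotated exons of a gene. The SVP group holds OsMADS22 (Os02g0761000), OsMADS47 (Os03g0186600) and OsMADS55 (Os06g0217300). The SOC1 group holds OsMADS50 (Os03g0122600) and OsMADS56 (Os10g0536100). The ANR1 group holds OsMADS57 (Os02g0731200), OsMADS27 (Os02g0579600) and OsMADS25 (Os04g0304400). OsMADS51 (Os01g0922800) and OsMADS26 (Os08g0112700) are placed here as relatives. The list speaks of these groups and relatives but does not say which locus belongs to which, so the grouping was made here. No table used here pairs the IDs of the count tables with gene names, so each name rests on that list. RefSeq sequences of these genes were not used here.

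The study sequenced RNA from 4 tissues of the rice cultivar Ilmi, and its title asks which genes are alternatively spliced in them. Leaf (2 libraries) and root (1 library) were taken at 14 days. Young panicle (2 libraries) was flowers before pollination from panicles 0.5 to 1.5 cm long, and seed (2 libraries) was harvested 20 to 30 days after pollination, with 21 in the sample names. The labels give no genotype, transgene or treatment beyond the cultivar, and the tissue labels were not checked against marker genes, since the IDs carry no names. The total count over exon bins per library ran from 11989260 in seed 2 to 49312943 in leaf 2, with 20940842 in root. Whether the libraries of a tissue are separate plants is not stated in the labels, and p-values thus cover the spread between these libraries alone, which may be technical. The single root library is assumed in its tests to be as variable as those of the other tissues.

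MADS-box proteins are transcription factors that bind DNA as dimers or larger complexes, and most work on them concerns the identity of floral organs. Other branches of the family act before the flower forms. The SVP group is named after Short Vegetative Phase of Arabidopsis, which holds back flowering. SOC1 of Arabidopsis collects several flowering signals and promotes the transition, and ANR1 of Arabidopsis drives lateral root growth where nitrate is found. In rice the members have been linked to brassinosteroid response, to heading date under long and short days, to tillering and to root growth.

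The 10 loci did not share 1 tissue pattern. OsMADS27 and OsMADS26 were highest in root, OsMADS25 was counted in root alone, and OsMADS47 was high in both leaf and root and low in panicle and seed. OsMADS50 had its highest values in leaf and few counts in seed, OsMADS57 was nearly absent from panicle, and OsMADS55 was nearly absent from root. OsMADS56 and OsMADS51 had substantial counts in every tissue. Levels are given as CPM, the counts of all bins of a locus scaled to library size with TMM factors. The files give no bin lengths, so levels of different genes are not compared with each other. In whole tissues, fewer cells of a type and less RNA per cell cannot be told apart.

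**Figure D1:**
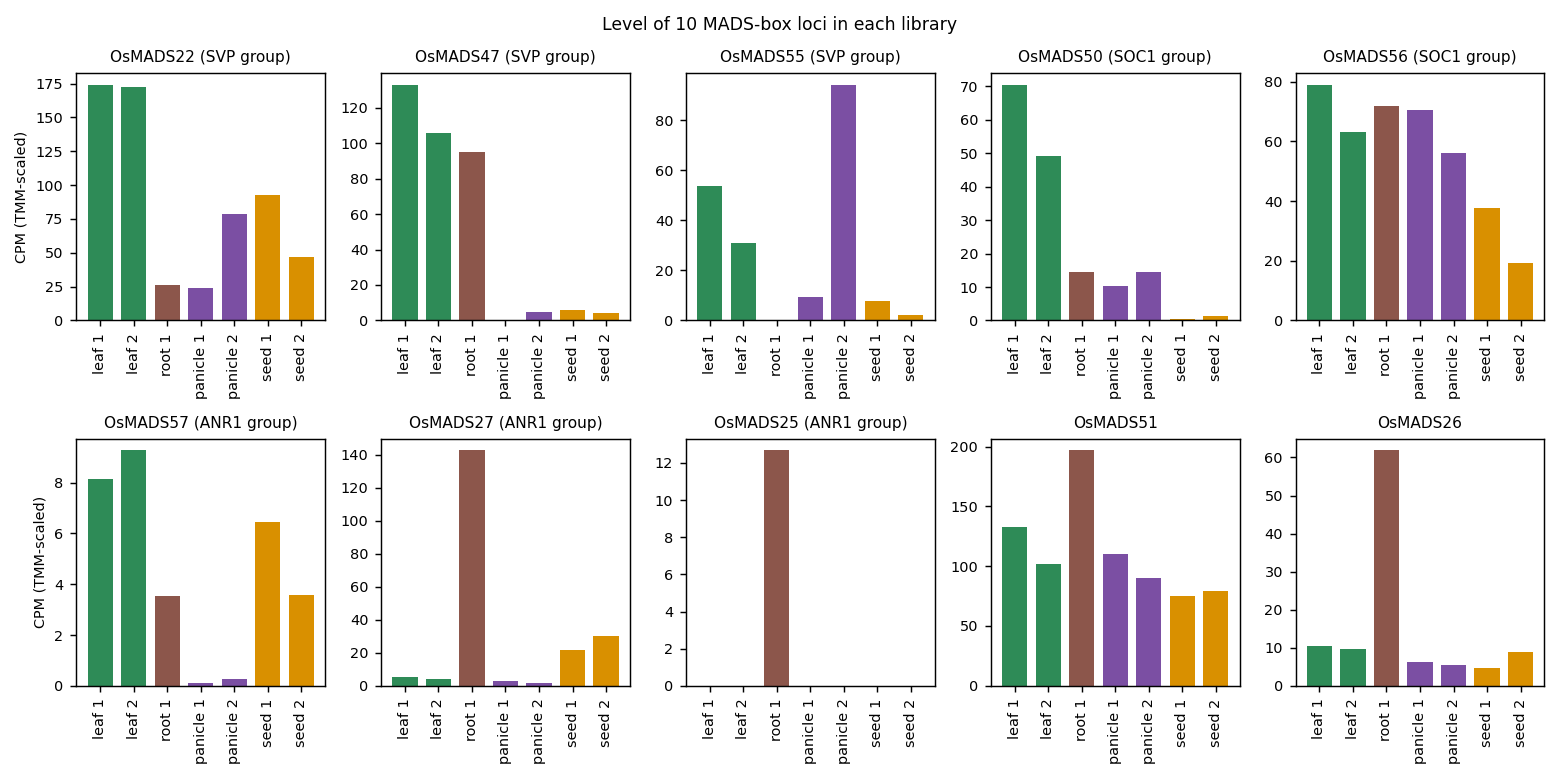
Each panel is 1 locus, each bar is 1 library, and the height is the level in CPM (TMM-scaled, linear axis from 0, a separate scale in each panel); there are no error bars because each bar is a single library. OsMADS27, OsMADS25 and OsMADS26 peak in root, at 143, 12.7 and 61.9 CPM, while OsMADS55 differs widely between the panicle libraries, at 9.45 and 94.0 CPM.

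Each pair of tissues was compared with edgeR's quasi-likelihood test over 26784 loci, with calls made where the Benjamini-Hochberg adjusted p was under 0.05 and the fold change 2 or more. All 10 members passed the filter on low counts. OsMADS25 passed through the root library alone, the tissue where it is high, and it is left out of the counts and medians that follow, which cover the other 9. Between leaf and panicle 3 of the 9 were called, all higher in leaf, where 21.3% of all tested loci were called in that direction, 8.75% in the other and 30.0% in either. Between leaf and seed 3 had the higher level in leaf and 1 in seed, against 18.1% and 11.2% of all loci. Between leaf and root 1 was higher in leaf and 2 higher in root, against 10.8% and 7.23%. In either direction 29.3% of all loci were called between leaf and seed and 18.1% between leaf and root.

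Against panicle, 4 members were higher in root and 1 was higher in panicle, where 18.0% and 10.2% of all loci were and 28.2% were called in either direction. Against seed, 5 members were higher in root and none was higher in seed, where 10.7% and 9.50% of all loci were and 20.2% were called in either direction. Of the members with a higher level in seed than in root, 1 had an unadjusted p under 0.05, OsMADS55, with an adjusted p of 0.114 by edgeR and 0.00524 by DESeq2. Between panicle and seed 1 was higher in panicle and 2 higher in seed, against 10.1% and 17.1% of all loci and 27.2% in either direction. The median log2 fold change of the 9 members was 0.97 for root over panicle and 1.35 for root over seed, while over all loci it was -0.05 and -0.09. It was 0.96 for leaf over panicle and 1.30 for leaf over seed, against 0.08 for all loci in both. For panicle over seed it was -0.21, against -0.10 for all loci, and for leaf over root 0.32, against 0.07. These comparisons share libraries, so their counts are not independent of each other.

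**Figure D2:**
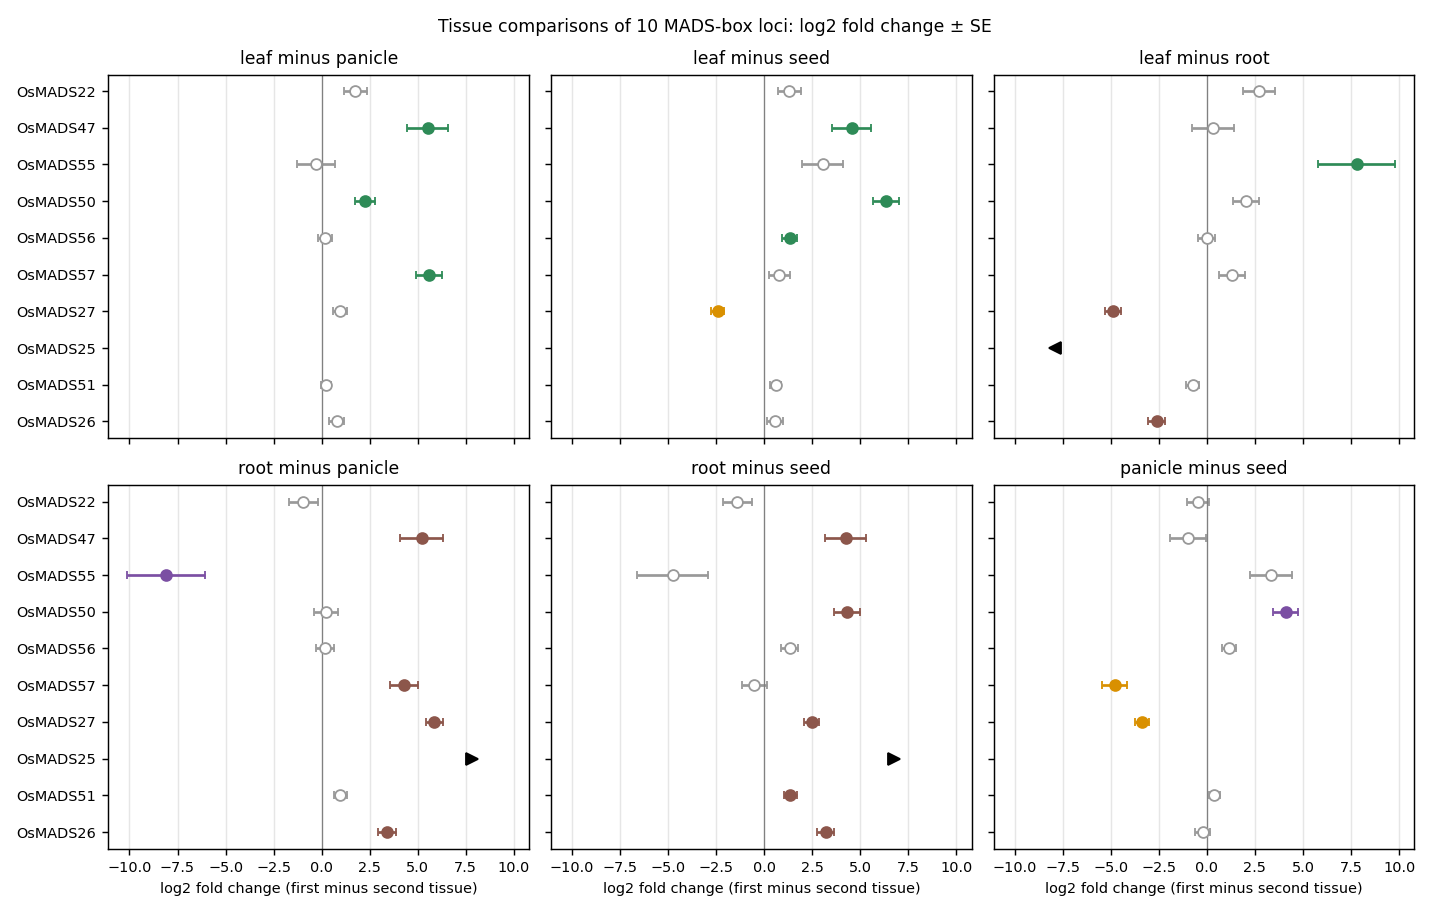
Each panel is 1 pair of tissues, and each point is a member's log2 fold change (first tissue minus second) with its SE from edgeR; filled points passed the threshold and take the color of the higher tissue, open grey points did not pass, and black triangles are lower bounds for OsMADS25, which had no count outside root. In the panel for root minus seed, 5 filled points lie on the root side and none on the seed side, against 10.7% and 9.50% of all tested loci. The bounds take the root value of OsMADS25 as it stands and could only lie on the root side.

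In the SVP group, OsMADS47 was a gene of leaf and root. OsMADS47 is also known as OsMDP1 and is a negative regulator of brassinosteroid response. Its level was 133 and 105 CPM in the leaf libraries, 95.2 CPM in root, 0.369 and 4.87 CPM in panicle, and 6.06 and 4.01 CPM in seed. All 3 libraries of leaf and root lay above all 4 of panicle and seed. The log2 fold change was 5.52 (SE 1.06, adjusted p = 0.00982) for leaf over panicle and 4.55 (SE 1.02, adjusted p = 0.0180) for leaf over seed. Root was higher than panicle by 5.20 (SE 1.11, adjusted p = 0.0155) and higher than seed by 4.23 (SE 1.08, adjusted p = 0.0364) on the log2 scale. Leaf and root did not differ by the test, at 0.32 (SE 1.07, adjusted p = 0.893). Leaf over seed was not called without leaf 1 (adjusted p = 0.0789) or leaf 2 (0.0773), leaf over panicle without leaf 1 (0.0503), and root over seed without leaf 1 (0.0856), leaf 2 (0.0851) or seed 2 (0.0582). Without panicle 2 the level in seed was higher than in panicle, with a log2 fold change of -3.78 for panicle over seed (adjusted p = 0.0152) against -0.97 with all libraries (adjusted p = 0.470).

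OsMADS55 also acts in brassinosteroid response, and its counts were lowest in root. It had 53.8 and 31.1 CPM in leaf, 0.185 CPM in root, 9.45 and 94.0 CPM in panicle, and 7.96 and 2.22 CPM in seed. The root value rests on 4 counts, below every other library, and the leaf values fall between those of the panicle libraries. Leaf was higher than root by 7.80 on the log2 scale (SE 2.0, adjusted p = 0.0391), and panicle was higher than root, with -8.08 for root over panicle (SE 2.02, adjusted p = 0.0267). Without leaf 1 or leaf 2 the adjusted p was 0.115 and 0.104 for the first, and 0.0579 for the second in both cases. Against seed the log2 fold change was 3.03 for leaf (SE 1.09, adjusted p = 0.0776) and 3.32 for panicle (SE 1.10, adjusted p = 0.0646), and neither passed. Both were called with DESeq2, at adjusted p = 0.0112 and 0.00408, and neither was with edgeR and RLE in place of TMM factors. With 1 library left out, the log2 fold change ran from 2.41 to 4.25 for leaf over seed. For panicle over seed it ran from 0.85, without panicle 2, to 4.54.

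OsMADS22, the third member of the group, was called in none of the 6 comparisons. Its level was 174 and 173 CPM in leaf, 26.4 CPM in root, 24.0 and 78.5 CPM in panicle, and 93.0 and 47.1 CPM in seed. Both leaf libraries lay above all others. Root lay below both seed libraries and between those of panicle, and panicle and seed overlapped. The log2 fold change of leaf was 1.76 over panicle (SE 0.59, adjusted p = 0.0643), 2.71 over root (SE 0.82, adjusted p = 0.0648) and 1.30 over seed (SE 0.59, adjusted p = 0.138). DESeq2 called the first (adjusted p = 0.0227) and the second (adjusted p = 0.00479), and leaving out seed 1 gave 0.0287 and 0.0270 with edgeR.

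The SVP loci were the members whose panicle libraries stood apart. Panicle 2 was higher than panicle 1 by 3.28-fold at OsMADS22, 13.2-fold at OsMADS47 and 9.95-fold at OsMADS55. On the log2(CPM + 0.5) scale these differences were 1.69, 2.63 and 3.25, in absolute size above 98.2%, 99.3% and 99.6% of the 26784 tested loci, for which the median absolute difference was 0.25. The other 7 members differed by -0.50 to 0.46 between the same libraries. Every SVP value for panicle therefore rests on 2 libraries that do not resemble each other at these loci. The labels give both libraries the same range of panicle length, and whether they differ in stage within it was not tested. Without panicle 2, the log2 fold change of OsMADS55 for leaf over panicle was 2.05, and with both libraries it was -0.29 (adjusted p = 0.147 and 0.859).

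**Figure D3:**
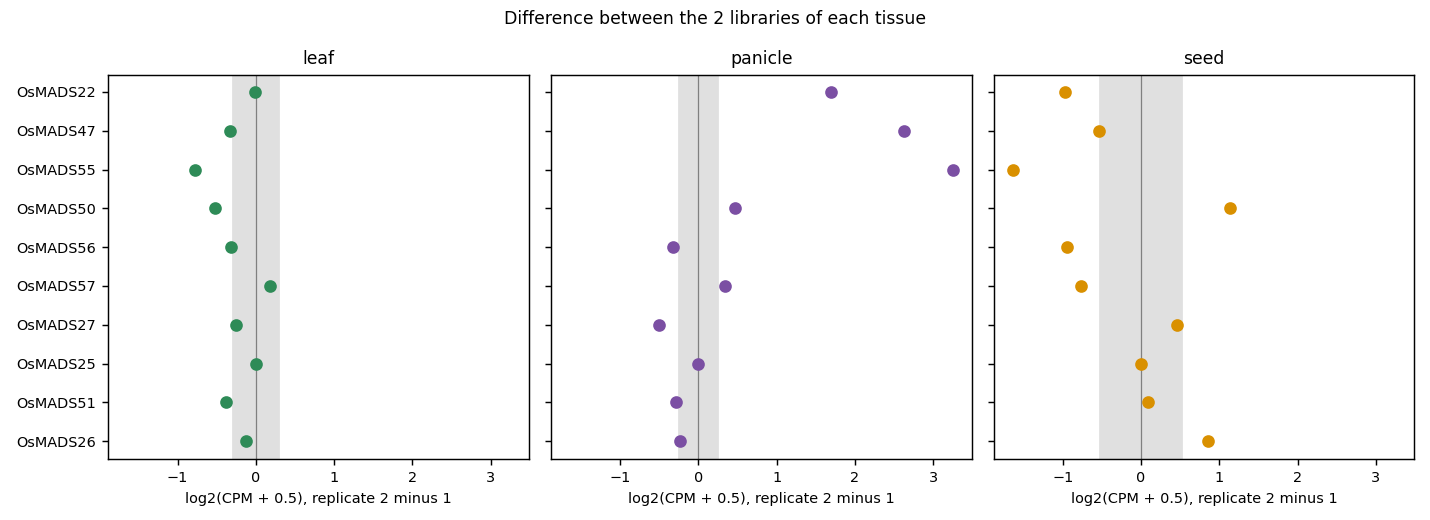
Each point is 1 member's difference between replicate 2 and replicate 1 of a tissue on the log2(CPM + 0.5) scale, and the grey band spans the median absolute difference of all tested loci on either side of 0. In panicle the 3 SVP loci lie at 1.69, 2.63 and 3.25, outside the range of -0.50 to 0.46 of the other members.

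In the SOC1 group, OsMADS50 had its highest values in leaf and hardly any counts in seed. OsMADS50 promotes flowering under long days, upstream of Ehd1. It had 70.4 and 49.1 CPM in leaf, 14.5 CPM in root, 10.4 and 14.5 CPM in panicle, and 0.306 and 1.27 CPM in seed. The seed values rest on 5 and 12 counts. Leaf lay above and seed below all other libraries, and root fell within the range of panicle. The log2 fold change over seed was 6.36 for leaf (SE 0.68, adjusted p = 0.00156), 4.31 for root (SE 0.69, adjusted p = 0.00835) and 4.10 for panicle (SE 0.63, adjusted p = 0.00565). Leaf was higher than panicle by 2.26 (SE 0.53, adjusted p = 0.0201), but without leaf 1, leaf 2, panicle 1 or panicle 2 the adjusted p was 0.130, 0.0742, 0.134 and 0.0795. Leaf over root was 2.04 (SE 0.69, adjusted p = 0.0900) and did not pass with edgeR, whereas DESeq2 gave adjusted p = 0.0286. It was not called with RLE in place of TMM factors either, and with 1 library left out it ran from 1.76 to 2.28. Root over seed gave an adjusted p of 0.0622 with only those tissues in the fit.

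OsMADS56, which delays flowering under long days and can form a complex with OsMADS50, had counts at similar levels in leaf, root and panicle. Its level was 78.9 and 63.1 CPM in leaf, 71.8 CPM in root, 70.6 and 56.3 CPM in panicle, and 37.5 and 19.3 CPM in seed. The ranges of leaf and panicle overlapped, root lay between the leaf libraries, and both seed libraries were below all others. The log2 fold change was 0.16 for leaf over panicle (SE 0.38), -0.02 for leaf over root (SE 0.46) and 0.18 for root over panicle (SE 0.46), with adjusted p of 0.777, 1 and 0.798. Leaf was higher than seed by 1.32 (SE 0.38, adjusted p = 0.0417). That call did not hold with 6 of the 7 libraries left out in turn, with adjusted p from 0.0519 without root to 0.185 without leaf 1, and the log2 fold change was then 0.92 to 1.47. Root over seed was 1.33 (SE 0.45, adjusted p = 0.0785) and panicle over seed 1.15 (SE 0.38, adjusted p = 0.0639), and DESeq2 called both, at adjusted p = 0.0241 and 0.0183.

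In the ANR1 group, OsMADS27 was a gene of root and, at a lower level, of seed. It is a target of the microRNA miR444 and takes part in nitrate-dependent root growth. Its level was 5.25 and 4.34 CPM in leaf, 143 CPM in root, 2.95 and 1.94 CPM in panicle, and 21.6 and 30.0 CPM in seed. The tissues did not overlap, in the order root, seed, leaf and panicle. Root was higher than leaf, with -4.90 for leaf over root (SE 0.42, adjusted p = 0.00130), higher than panicle by 5.86 (SE 0.43, adjusted p = 0.000773), and higher than seed by 2.47 (SE 0.39, adjusted p = 0.00835) on the log2 scale. Seed was higher than leaf, with -2.43 for leaf over seed (SE 0.36, adjusted p = 0.00426), and higher than panicle, with -3.39 for panicle over seed (SE 0.37, adjusted p = 0.00193). Leaf over panicle was 0.96 (SE 0.35, adjusted p = 0.0795). Leaf against seed gave an adjusted p of 0.0542 without leaf 2, and root against seed 0.0538 with only those tissues in the fit.

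OsMADS25, which promotes root growth in response to nitrate, was counted in root alone. It had 274 counts in root, or 12.7 CPM, and no count in any of the 6 libraries of leaf, panicle and seed. A count of 0 allows up to 0.0535 CPM in leaf, 0.0566 CPM in panicle and 0.116 CPM in seed, taking 3 counts over both libraries of a tissue. Taking the value of the single root library as it stands, root was thus at least 237-fold higher than leaf. In the same way it was at least 224-fold higher than panicle and at least 109-fold higher than seed. No test is given, since the locus passed the filter on low counts through root alone. The bounds make no allowance for reads counted in more than 1 bin. They fall when a library is left out, to 74.1-fold without leaf 2, 98.0-fold without panicle 1 and 40.1-fold without seed 1, since 3 counts then weigh on fewer reads.

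OsMADS57 had low counts throughout and hardly any in panicle. It too is a target of miR444, and it acts in tillering, where its protein binds the promoter of D14 and interacts with OsTB1. It had 8.15 and 9.27 CPM in leaf, 3.52 CPM in root, 0.101 and 0.259 CPM in panicle, and 6.43 and 3.59 CPM in seed. The panicle values rest on 3 and 6 counts and lay below every other library, and leaf lay above every other library. Panicle was lower than leaf, with 5.60 for leaf over panicle (SE 0.68, adjusted p = 0.00165), lower than root, with 4.29 for root over panicle (SE 0.71, adjusted p = 0.00652), and lower than seed, with -4.81 for panicle over seed (SE 0.66, adjusted p = 0.00392). Leaf, root and seed did not differ by the test, with 0.79 for leaf over seed (SE 0.53, adjusted p = 0.299), 1.31 for leaf over root (SE 0.69, adjusted p = 0.252) and -0.52 for root over seed (SE 0.67, adjusted p = 0.613). With only leaf and root in the fit, leaf over root was 1.29 and was called.

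Among the relatives, OsMADS26 was highest in root. OsMADS26 belongs to the branch of Arabidopsis AGL12 and is a negative regulator of resistance to pathogens and drought. Its level was 10.5 and 9.56 CPM in leaf, 61.9 CPM in root, 6.37 and 5.35 CPM in panicle, and 4.72 and 8.97 CPM in seed. Root lay far above the rest, leaf lay above panicle and seed, and the panicle values fell between those of seed. Root was higher than leaf, with -2.63 for leaf over root (SE 0.45, adjusted p = 0.00970), higher than panicle by 3.40 (SE 0.46, adjusted p = 0.00343) and higher than seed by 3.19 (SE 0.46, adjusted p = 0.00638). The comparison with leaf was not called without leaf 1 (adjusted p = 0.0730) or leaf 2 (0.0876). The log2 fold change among the other tissues was 0.77 for leaf over panicle (adjusted p = 0.176), 0.56 for leaf over seed (adjusted p = 0.323) and -0.21 for panicle over seed (adjusted p = 0.721).

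OsMADS51 promotes flowering under short days, between OsGI and Ehd1, and it varied least across the tissues of the 10 loci. It had 133 and 102 CPM in leaf, 197 CPM in root, 111 and 90.4 CPM in panicle, and 74.8 and 79.6 CPM in seed. Root lay above and seed below all other libraries, and leaf and panicle overlapped. Its tissue means spanned 1.35 on the log2(CPM + 0.5) scale, next to 1.40 for OsMADS56, while the other 8 members spanned 2.69 to 5.92. Root over seed was the called comparison, at 1.35 (SE 0.33, adjusted p = 0.0325). It was not called with the largest bin in place of the sum (adjusted p = 0.0603), with only those tissues in the fit (0.197), or without leaf 1, leaf 2, panicle 1 or panicle 2 (0.0708, 0.0701, 0.0922 and 0.0906). Root over panicle was 0.97 (SE 0.33, adjusted p = 0.0710), and leaf over root was -0.75 (SE 0.34, adjusted p = 0.187). DESeq2 called root over panicle, at 1.02 (adjusted p = 0.0131).

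By the stricter rule of being called higher in 1 tissue than in each of the other 3, OsMADS27 and OsMADS26 were root loci among the 9 members, and none was a leaf, panicle or seed locus. OsMADS25 is left out here, since it passed the filter on low counts through root alone. Over all tested loci 4.39% were root loci by this rule, 6.24% leaf loci, 2.39% panicle loci and 2.99% seed loci, and 16.0% were loci of any 1 tissue. Without leaf 1 or without leaf 2, OsMADS27 alone met it for root. OsMADS50 met it for leaf with DESeq2, with the largest bin, with only both tissues in the fit and without either seed library, and OsMADS27 did not meet it with only both tissues in the fit. Of the 23 called comparisons of the 9 members, all 23 had every bin with a count on the same side. The calls were made on the sums of these same bins, so this describes the bins and lends the calls no support. The matching share over all called loci was not taken.

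The balance of related loci was followed as a ratio of their counts. Such a ratio depends on the lengths of the loci, but its difference between tissues does not, and the ratios are described with no test. The log2 ratio of OsMADS22 to OsMADS55 was 6.99 in root and, by library, 3.54 and 4.38 in seed, 1.69 and 2.47 in leaf, and 1.34 and -0.26 in panicle. Root and seed thus had more OsMADS22 per count of OsMADS55 than leaf or panicle, and in panicle 2 OsMADS55 had the larger count. The root ratio rests on 4 counts of OsMADS55.

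For OsMADS50 to OsMADS56, the activator and the repressor of flowering, the log2 ratio was highest in leaf, at -0.16 and -0.36, then -2.31 in root. The panicle libraries had -2.76 and -1.95, and those of seed had -6.80 and -3.88. Leaf and seed, the highest and the lowest, overlapped with no other tissue, and the root value fell between those of panicle. The distance from leaf to seed was 5.08, and 3.61 without seed 1 or 6.54 without seed 2. For OsMADS27 to OsMADS57, both targets of miR444, the log2 ratio was 5.33 in root and, by library, 4.66 and 2.81 in panicle, 1.74 and 3.04 in seed, and -0.63 and -1.09 in leaf. OsMADS57 had the larger count in leaf and OsMADS27 in every other library. In panicle the ratio rests on 3 and 6 counts of OsMADS57, and bin 3 of OsMADS27, described with the exon bins, held 52 of 88 and 35 of 45 counts of that locus. Without bin 3 the panicle ratios were 3.38 and 0.69, and the latter lay below those of both seed libraries, at 1.41 and 2.68.

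**Figure D4:**
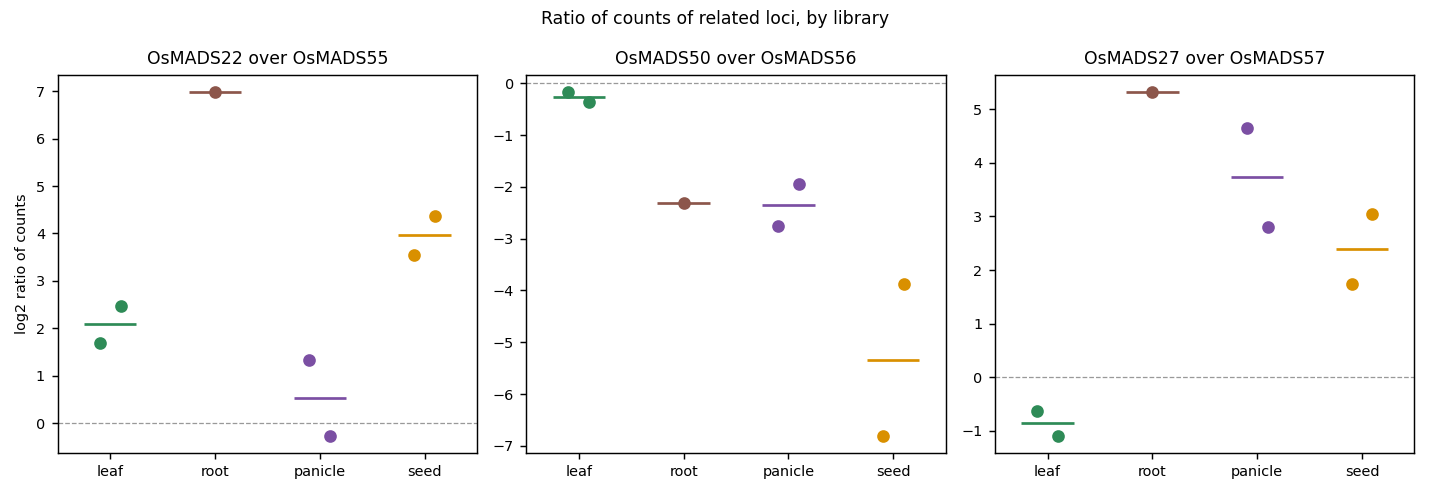
Each point is the log2 ratio of the counts of the named loci in 1 library (0.5 added to each count), the short line is the tissue mean, and the dashed line marks equal counts. The ratio of OsMADS50 to OsMADS56 is near 0 in leaf, at -0.16 and -0.36, and lowest in seed, at -6.80 and -3.88.

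Exon usage was compared by testing each bin's log2 fold change against that of its locus (edgeR, diffSpliceDGE), over 68 member bins. These include bins 3, 4, 6 and 7 of OsMADS25, which had no count outside root, so no difference in usage could be found for them. No member bin was called in any of the 6 comparisons, while 0.0493% of all tested bins were called between leaf and panicle, 0.0365% between leaf and seed, 0.0280% between panicle and seed, 0.0161% between leaf and root, 0.0272% between root and panicle and 0.00595% between root and seed. At an unadjusted p under 0.05 there were 3, 0, 2, 2, 5 and 0 member bins in the same order. The share of all tested bins under that value was not taken, so no result is read from these numbers. The F test per locus also called none, and voom with diffSplice called 1, bin 3 of OsMADS27 between root and panicle. The shares that follow describe the libraries. Bins are numbered in the order of the files, and the strand of a locus is not given there, so a number does not tell which end of the transcript a bin is near. Junction reads are not part of these counts.

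Bin 3 of OsMADS27 had the smallest adjusted p of the member bins. It held 8.99% of the locus's counts in root (95% Wilson interval 8.03% to 10.1%) and 20.7% and 22.2% in the seed libraries. The leaf and panicle libraries held fewer than the 200 counts of the locus that the choice of bins asked for, and their shares are given with their 95% Wilson intervals. In panicle the bin held 59.1% of 88 counts (48.6% to 68.8%) and 77.8% of 45 counts (63.7% to 87.5%). In leaf it held 30.4% of 92 counts (22.0% to 40.5%) and 24.6% of 167 counts (18.6% to 31.6%), and these intervals overlap with those of seed. The bin alone was at 12.8 CPM in root, 4.47 and 6.65 CPM in seed, 1.74 and 1.51 CPM in panicle, and 1.60 and 1.07 CPM in leaf. The other 7 bins together were at 1.21 and 0.431 CPM in panicle, against 130 CPM in root. Between root and panicle the log2 change in usage of this bin was -2.0 (edgeR, unadjusted p = 0.000356, adjusted p = 0.302), with voom and diffSplice the adjusted p was 0.000257, and under the other alternatives it was 0.0965 to 1. Without the bin, a choice made after seeing the data, the locus was higher in leaf than in panicle by 2.05 on the log2 scale (edgeR, adjusted p = 0.0220), against 0.96 with it. Reads shared with another locus or an overlapping transcript were not tested.

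OsMADS50 has 10 bins, of which bins 1, 2 and 4 had no count in any library and bin 3 had 2 counts in all. No bin of this locus was called. Bins 9 and 10 together, a pair chosen after their values were seen, held 22.3% and 15.1% of the locus's counts in leaf, 22.4% in root (95% Wilson interval 18.1% to 27.3%) and 4.18% and 9.79% in panicle. Bins 5 and 6 together held 38.3% and 33.8% in the panicle libraries, 18.6% and 24.5% in those of leaf, and 16.0% in root. Bins 7 and 8 together held 57.2% and 56.4% in the panicle libraries, 58.9% and 60.4% in those of leaf, and 61.7% in root. The panicle libraries lay below the range of leaf and root for bins 9 and 10 and above it for bins 5 and 6, while for bins 7 and 8 the 5 libraries ran from 56.4% to 61.7%. Bin 6 had the largest difference of the locus, with 8.95% in root and 19.7% ± 2.64 (SD, n = 2) in panicle. For bin 10 the unadjusted p was 0.0257 between leaf and panicle and 0.0197 between root and panicle (edgeR), and the adjusted p was 1 for both. Seed held too few counts of the locus for a share.

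In OsMADS56, bin 1 held 1.68% of the counts in root (95% Wilson interval 1.15% to 2.44%), against 6.98% ± 1.08 in leaf, 7.25% ± 1.66 in panicle and 4.22% ± 0.207 in seed (SD, n = 2 each), where seed 2 held 183 counts of the locus. Root lay below every other library. Bin 1 was not the bin with the largest difference in share, and it was chosen after its values were seen. The unadjusted p was 0.00227 between leaf and root and 0.00192 between root and panicle (edgeR), with adjusted p of 1 and 0.620. Bin 8 of the same locus had its largest difference between tissues, with 13.5% in root and 23.4% ± 1.75 (SD, n = 2) in panicle. In leaf that bin held 13.7% and 23.1%, which spans most of that distance within 1 tissue.

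**Figure D5:**
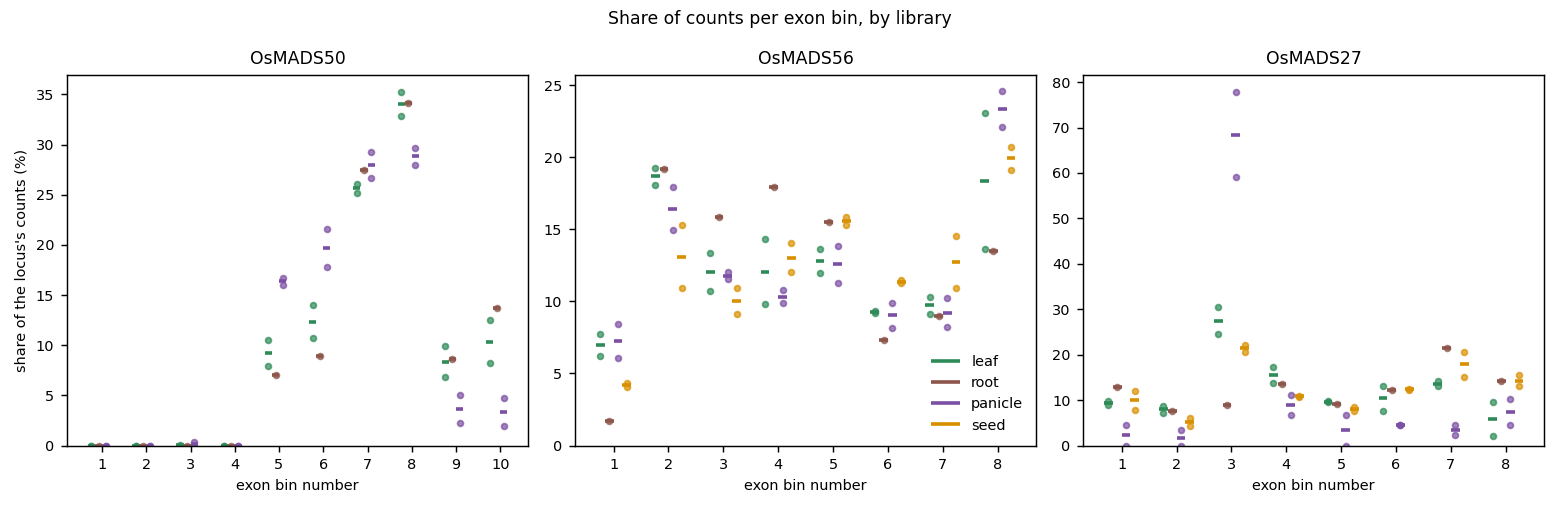
Each point is the share, in percent, of a locus's counts held by an exon bin in 1 library, the short line is the tissue mean, and bins run in the order of the files; seed is not drawn for OsMADS50, which had 5 and 12 counts there. Bin 3 of OsMADS27 reaches 59.1% and 77.8% in panicle, on 88 and 45 counts, and bin 1 of OsMADS56 is at 1.68% in root.

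The other members with at least 200 counts in every library of 2 or more tissues had smaller differences. The largest difference was 4.44 percentage points for OsMADS22 (bin 1, 14.5% in root and 10.1% in seed) and 1.73 for OsMADS47 (bin 3, 8.87% in leaf and 7.15% in root). It was 7.56 for OsMADS55 (bin 8, 16.1% in leaf and 8.58% in panicle) and 7.13 for OsMADS51 (bin 1, 19.7% in root and 12.6% in panicle). OsMADS25 and OsMADS26 reached that number in root alone, and OsMADS57 in no tissue.

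The loci most like 2 of the members were sought over the 7 libraries, among 22037 other loci with a mean of 1 CPM or more. For OsMADS51, which had the highest mean log2 CPM of the members, they were Os05g0443700 and Os10g0183000, with Pearson's r of log2(CPM + 0.5) of 0.989 and 0.982. For OsMADS55, which had the widest range of tissue means, they were Os07g0571600 and Os12g0123500, with r of 0.959 and 0.955. The 7 points hold 4 tissues and share library scaling, 191 and 51 loci reached an r of 0.9 or more with the same members, and the values describe likeness only.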

How the data were processed

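RNA from 7 libraries was measured as counts per exon bin. The authors deposited raw whole-number counts in 1 table per library. The TruSeq RNA kit was used, per the labels' protocols. The submitters' processing notes name bcl2fastq 1.8.4, TopHat2 2.0.4, Bowtie2, SAMtools 1.2, Cufflinks, HTSeq and the build IRGSP-1.0. The sources used here state neither strand setting nor counting options, so overlapping or antisense genes and near-identical copies cannot be separated. Closing rows that name no gene held 12.2% to 15.8% of counts and were left out.

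Bins were summed per locus. Loci passed edgeR's filterByExpr (minimum count 10 in 1 library). The model had 4 tissue means, TMM scaling and 3 residual degrees of freedom (edgeR 4.0.16, limma 3.58.1 and DESeq2 1.42.0 in R 4.3.3). An SE is the size of a log2 fold change divided by the root of its F statistic. Fits were tested on simulated data. Share intervals cover counting error only. The bounds for OsMADS25 cover counting error in the tissue with no count, but not in root.

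The members, lists and tests were chosen with earlier results of these data known. All 10 members are named. Bins were named by a call or, with none called, by the largest difference in share, and other loci by likeness. Outside this rule, bin 1 of OsMADS56 and the paired bins of OsMADS50, bin 10 among them, were named after their values were seen. The RefSeq gene table (ASM3414082v1) matched 1 of the locus IDs and holds symbols of 9 members, so gene lists for the flowering pathway and tissue markers were not used. Alternatives were RLE factors, DESeq2, no filter, the largest bin, both tissues only, no or a 4-fold minimum, a replicate block, each library left out and, for bins, voom, an F test and a minimum of 50 counts. For ratios they were the largest bin and pseudocounts of 0.1 and 1 in place of 0.5.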

Additional observations from a re-analysis of the deposited data

How the results depend on the processing

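Leaving OsMADS25 out, 23 member comparisons were called. All 23 were also called with RLE factors, DESeq2, no low-count filter and no fold minimum, 22 with the replicate block, 21 with a 4-fold minimum, 20 with the largest bin and 19 with only both tissues in the fit. Without leaf 1 or leaf 2 there were 14, and 11 were called under every one of these settings except the 4-fold minimum and with each library left out in turn. Comparisons with root could not be made without the single root library, so for them only the other libraries were left out. The counts in the next sentences include OsMADS25. The number of members called ran, with 1 library left out, from 1 to 4 for leaf against panicle, 1 to 4 for leaf against seed, 1 to 6 for leaf against root and 4 to 7 for root against seed, and that of members highest in 1 tissue from 1 to 4. DESeq2 called 5 members between panicle and seed, and with only both tissues in the fit there were 7 between leaf and root and 3 between root and seed. Voom with diffSplice called 1 member bin between root and panicle. The log2 ratio's distance between its extreme tissues ran from 3.42 to 7.25 for OsMADS22 to OsMADS55, 3.61 to 6.54 for OsMADS50 to OsMADS56 and 4.60 to 6.43 for OsMADS27 to OsMADS57 with 1 library left out. Values that changed sign were all uncalled in the model of all libraries. With the largest bin, the log2 fold change of leaf over panicle was -0.073 for OsMADS56, -0.40 for OsMADS27 and -0.056 for OsMADS51, and for OsMADS56 that of leaf over root was 0.030 and that of root over panicle -0.10. With 1 library left out, the range was -1.57 to 0.16 for panicle over seed and -1.69 to 0.041 for root over panicle at OsMADS22, -1.28 to 2.05 for leaf over panicle at OsMADS55, and -0.12 to 0.37 for root over panicle at OsMADS50. At OsMADS56 it was -0.11 to 0.32 for leaf over panicle, -0.19 to 0.14 for leaf over root and -0.076 to 0.23 for root over panicle. It was -0.033 to 0.41 for leaf over panicle at OsMADS51 and -0.61 to 0.31 for panicle over seed at OsMADS26. With the replicate block, leaf over root was 0.24 and root over panicle -0.081 at OsMADS56, OsMADS51 was not called for root over seed (1.25, adjusted p = 0.0515), and OsMADS56 was called for panicle over seed (1.21, adjusted p = 0.0250). The labels do not say whether same-numbered libraries share more than a number. Their deviations correlated at 0.139 for leaf and panicle, 0.220 for leaf and seed and 0.0440 for panicle and seed, which does not settle it. The cause of these changes was not tested. Depth limits OsMADS57 in panicle, OsMADS55 in root and OsMADS50 in seed, which rest on a few counts.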
